A study of Musca domestica with 6 samples.

Results

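The Methuselah-like receptors are a family of cell-surface receptors coupled to G proteins, and the deposited annotation of the housefly Musca domestica lists 23 protein-coding genes of this family among 13278 protein-coding genes and 14227 genes in all. Members were taken as the protein-coding rows whose description contains "methuselah" or "receptor Mth". Of the 23, 13 are described as Mth2-like, 2 as Mth2, 6 as Mth-like with a number, and 2 as Mth-like without one. The authors' table names the amino-terminal Methuselah domain (Methuselah_N) for 14 members, a secretin-type transmembrane domain (7tm_2) for 4, and another domain name for 5.

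RNA was sequenced from whole larvae of the second larval instar, 24 h after injection of double-stranded RNA. In the dsMdCht9 group (3 libraries) the injected RNA targeted the chitinase gene MdCht9. In the dsGFP group (3 libraries) it targeted GFP, a jellyfish gene with no counterpart in the fly, as the control injection. The labels give no strain, sex or age for either group, and no entry of the annotation names MdCht9, so the level of the targeted gene is not reported here.

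Libraries held 12876941 to 14107417 gene-assigned reads in dsMdCht9 larvae and 15314878 to 15439421 in dsGFP larvae. The series text speaks of retinal profiles where the labels give the tissue as the whole body, and fat body, muscle and gut markers summed to at least 87050, 22490 and 13767 CPM (counts scaled to library size) in every library, against 140 to 215 CPM for nervous system markers. Whether replicate samples were separate batches of larvae is not stated in the labels, so p-values measure a spread between samples that may be technical. In whole larvae, fewer cells of a type and less RNA per cell cannot be told apart.

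Methuselah-type receptors belong to the secretin and adhesion branch of the G protein-coupled receptors and carry an extracellular domain found in insects. The founding member, Methuselah of Drosophila melanogaster, takes its name from the longer life and greater stress resistance of flies in which the gene is disrupted, and peptides of Stunted, the epsilon subunit of ATP synthase, activate it. Other Drosophila members act in development: Mth-like 1 is a receptor for the secreted ligand Folded gastrulation during epithelial folding, Mth-like 5 takes part in forming the heart, and Mth-like 10 is a receptor for growth-blocking peptides. A name in the housefly table is the description of a best-matching protein, and the Drosophila roles are given here as background only.

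The deposited table holds no gene without a read, the fewest being 1 read over all libraries, so a copy with no read could not appear among the members. All 23 listed genes had reads in every library, the fewest being 6, as did 11161 of 13278 protein-coding genes, and all 23 passed the filter on low counts that was used for testing. By comparison, 10340 of 13278 protein-coding genes, 24 of 70 other G protein-coupled receptors and 7 of 8 other secretin and adhesion receptors passed it. At a stricter level of 5 CPM in at least 3 libraries, 16 members remained. Since the family was proposed with these data in view, these counts are a description. Exon lengths were not given, so CPM orders the genes by reads taken and not by transcript level per length.

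**Figure D1:**
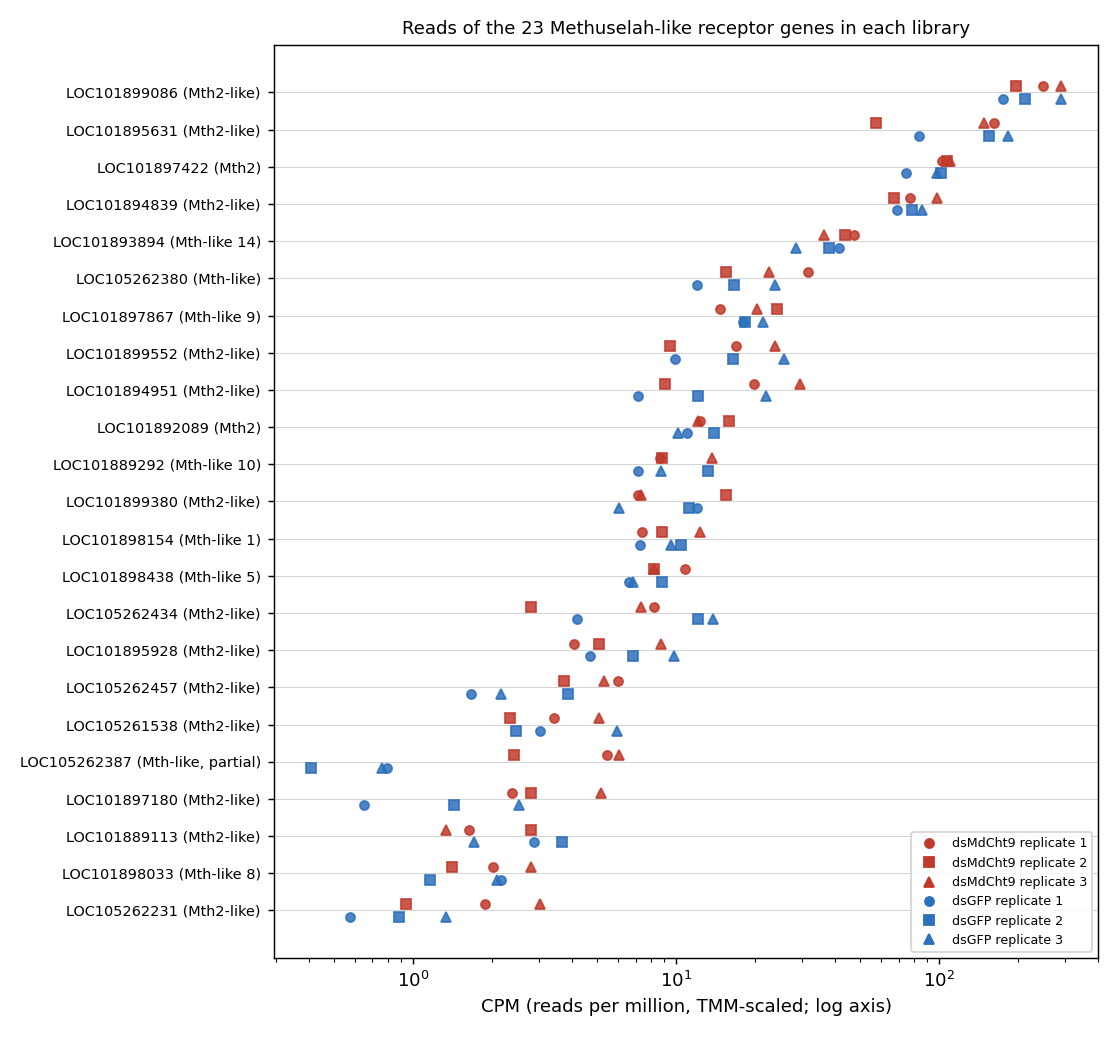
CPM of each of the 23 family members (rows, ordered by total reads) in every library on a log axis, with dsMdCht9 libraries in red above dsGFP libraries in blue and the replicate shown by the symbol. Members range from 235 CPM for LOC101899086 to 1.44 CPM for LOC105262231 averaged over the 6 libraries, and LOC105262387 is a row whose red and blue points stand far apart.

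Reads were spread very unevenly over the copies. LOC101899086 alone took 31.7% of the family's reads, the 4 most abundant genes took 73.7% and the 10 most abundant took 90.5%. The plot of CPM by gene shows the order, from 20505 reads for LOC101899086 to 125 for LOC105262231 over all libraries. In what follows, values of 3 libraries are given in the order of replicates 1, 2 and 3, and means carry the SD over 3 libraries. Fold changes are log2 of dsMdCht9 over dsGFP with an approximate standard error. It was derived from the edgeR test as the absolute log2 fold change over the square root of the F statistic.

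The most abundant member was LOC101899086, described as Mth2-like and matched in the authors' table to a Mth-like 10 protein in UniProt. It had 247, 196 and 289 CPM in dsMdCht9 larvae, against 175, 213 and 290 CPM in dsGFP larvae. Both groups reached nearly the same top value and the groups overlapped, with a log2 fold change of 0.11 ± 0.25. The gene spans bases 6218 to 21658 on the plus strand of scaffold NW_004766817.1, as numbered in the deposited table.

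LOC101895631, also Mth2-like, took 18.0% of the family's reads and varied more between libraries than LOC101899086 did. It had 162, 57.5 and 148 CPM in dsMdCht9 larvae, against 83.6, 154 and 182 CPM in dsGFP larvae. One low library in each group, dsMdCht9 replicate 2 and dsGFP replicate 1, made a 3.17-fold range within the 6 libraries, while the means of 122 ± 56.7 CPM in dsMdCht9 larvae and 140 ± 50.8 CPM in dsGFP larvae differed by less than their SDs. It lies at NW_004770894.1, bases 43475 to 50158, plus strand.

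LOC101897422, one of the 2 genes described as Mth2, was the steadiest of the abundant members in treated larvae. It had 102, 107 and 110 CPM in dsMdCht9 larvae, against 74.5, 101 and 98.2 CPM in dsGFP larvae. Every dsMdCht9 library was above every dsGFP library, by a narrow margin, and the log2 fold change was 0.22 ± 0.17. It spans 36136 bases at NW_004765809.1, bases 13676 to 49811, plus strand. The other Mth2 gene, LOC101892089, was lower, with 12.3, 15.9 and 12.1 CPM in dsMdCht9 larvae and 11.0, 13.9 and 10.2 CPM in dsGFP larvae. Its groups overlapped and its gene model is the longest of the family at 39492 bases.

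The fourth-ranked gene, LOC101894839 (Mth2-like), had 77.3, 67.5 and 98.3 CPM in dsMdCht9 larvae, against 68.9, 78.9 and 86.1 CPM in dsGFP larvae. Its values overlapped almost completely. These first 4 ranks were separated from the fifth, LOC101893894, by a step: no library of LOC101893894 exceeded 47.2 CPM, and no library of the first 4 genes fell below 57.5 CPM. Among the first 4, the ranges over the libraries of LOC101895631, LOC101897422 and LOC101894839 overlapped, so their order is within the spread between libraries. LOC101899086 was above them in every single library, although its lowest value, 175 CPM, was under the highest of LOC101895631, 182 CPM.

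Members whose description names a Drosophila gene with a known ligand or role sat in the middle of the order. LOC101889292, described as Mth-like 10, had 8.64, 8.80 and 13.6 CPM in dsMdCht9 larvae, against 7.14, 13.2 and 8.73 CPM in dsGFP larvae. Its UniProt match is Mth2, while the UniProt match to Mth-like 10 belongs to LOC101899086, the most abundant member. Which copy corresponds to Mth-like 10 is therefore not settled by these names. LOC101898154, Mth-like 1, had 7.39, 8.80 and 12.3 CPM in dsMdCht9 larvae, against 7.28, 10.4 and 9.55 CPM in dsGFP larvae. LOC101898438, Mth-like 5, had 10.8, 8.26 and 8.26 CPM in dsMdCht9 larvae, against 6.63, 8.86 and 6.83 CPM in dsGFP larvae. None of these 3 separated the groups, and their levels could not be ordered against each other beyond the spread between libraries. The model of LOC101898438 lies wholly within LOC101900676, which encodes the splicing protein aquarius on the opposite strand and held 1832 reads. The sources used here do not say whether strand was used in counting, so reads of this pair cannot be told apart.

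The other numbered members were Mth-like 14, Mth-like 9 and Mth-like 8. LOC101893894 (Mth-like 14, matched to a protein of the stable fly Stomoxys calcitrans) had 47.2, 43.7 and 36.6 CPM in dsMdCht9 larvae, against 41.4, 38.2 and 28.5 CPM in dsGFP larvae. LOC101897867 (Mth-like 9) had 14.7, 24.2 and 20.3 CPM in dsMdCht9 larvae, against 17.9, 18.3 and 21.3 CPM in dsGFP larvae. LOC101898033 (Mth-like 8) was among the lowest, at 2.07 ± 0.702 CPM in dsMdCht9 larvae and 1.80 ± 0.559 CPM in dsGFP larvae. For all 3 the groups overlapped, and the group means differed by less than the larger SD.

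Most of the family is made of Mth2-like copies, and these covered the whole range of levels. LOC105262380, described as Mth-like without a number, had 31.6, 15.5 and 22.5 CPM in dsMdCht9 larvae and 12.0, 16.6 and 23.7 CPM in dsGFP larvae. LOC101899552 had 16.8, 9.43 and 23.7 CPM in dsMdCht9 larvae and 9.88, 16.4 and 25.6 CPM in dsGFP larvae. LOC101894951 had 19.8, 9.04 and 29.4 CPM in dsMdCht9 larvae and 7.14, 12.1 and 21.9 CPM in dsGFP larvae, a 4.12-fold range over the libraries. For each of these 3 genes the range within a group was wider than the difference between the group means.

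Among the copies lower in the order, LOC105262434 had the most negative fold change of the family. It had 8.20, 2.81 and 7.37 CPM in dsMdCht9 larvae, against 4.18, 12.1 and 13.8 CPM in dsGFP larvae. These values spread 4.92-fold over the 6 libraries and the groups overlapped, with a log2 fold change of -0.71 ± 0.54. LOC101889113 had the next most negative value, -0.52 ± 0.41, with means of 1.92 ± 0.781 CPM in dsMdCht9 larvae and 2.76 ± 0.993 CPM in dsGFP larvae. LOC101899380 had 7.14, 15.5 and 7.37 CPM in dsMdCht9 larvae, against 12.0, 11.2 and 6.07 CPM in dsGFP larvae. Its groups overlapped, and the log2 fold change was 0.04 ± 0.39. LOC101895928 and LOC105261538 had log2 fold changes of -0.25 ± 0.38 and -0.07 ± 0.43. A non-coding RNA gene of 399 bases, with 74 reads over all libraries, is annotated inside LOC101895928 on the same strand, so its reads and those of LOC101895928 may not be separable.

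The copies are grouped on the assembly. In the deposited table, 12 of the 23 members lie in 4 groups of neighbours on a shared scaffold, with at most 50000 bases between one member and the next, and the 23 members lie on 15 scaffolds in all. Scaffold NW_004766817.1 carries 4 members within 89486 bases, in the order LOC101899086, LOC101899380, LOC105262231 and LOC101899552, with gaps of 8812 to 16711 bases. NW_004765809.1 carries LOC101897422, LOC101897867 and LOC101898033 within 87605 bases, with gaps of 5872 and 6293 bases. The table lists no other gene on either scaffold. NW_004770894.1 carries LOC105262434, LOC101895631 and LOC101895928 beside 2 other genes, and NW_004764608.1 carries LOC101889113 and LOC101889292 alone. The same 12 genes were grouped when the allowed gap was 20000 or 200000 bases.

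**Figure D2:**
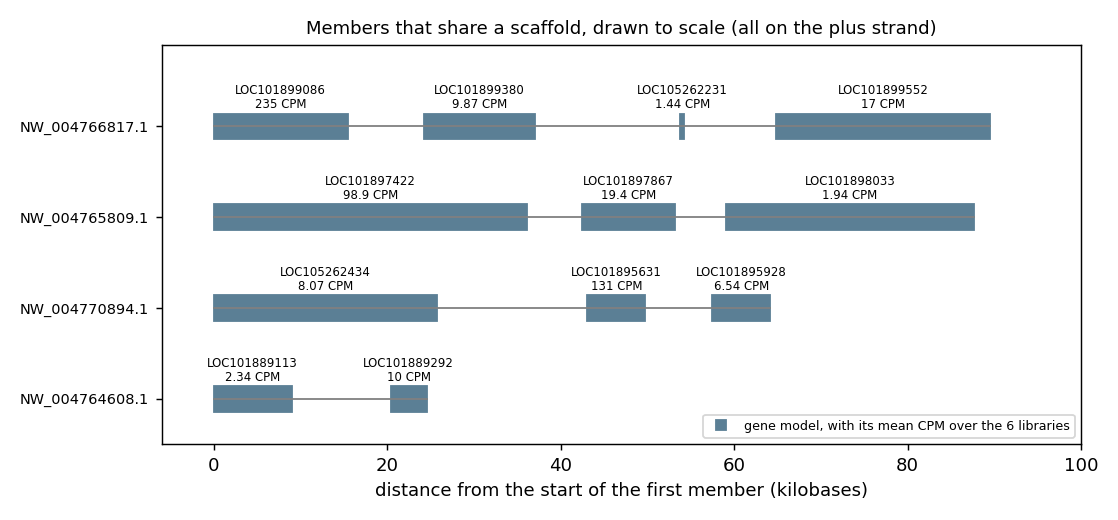
Gene models of the 12 members that share a scaffold, drawn to scale from the start of the first member on each scaffold (x axis, kilobases; all on the plus strand), with the mean CPM over the 6 libraries above each box. In each of the 4 groups one member takes most of the reads, such as 235 CPM for LOC101899086 beside 9.87 CPM for LOC101899380.

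Within each group of neighbours, levels differed widely. On NW_004766817.1 the mean over the 6 libraries was 235 CPM for LOC101899086, 9.87 CPM for LOC101899380, 1.44 CPM for LOC105262231 and 17.0 CPM for LOC101899552. On NW_004765809.1 it was 98.9 CPM for LOC101897422, 19.4 CPM for LOC101897867 and 1.94 CPM for LOC101898033. The scaffold map shows the same in the other groups, with 1 member holding most of the reads in each. Fold changes of neighbours had 1 sign in 2 groups, at 0.22, 0.04 and 0.20 on NW_004765809.1 and -0.71, -0.19 and -0.25 on NW_004770894.1, with groups of libraries that overlapped for all but LOC101897422. LOC105262231, with a log2 fold change of 1.05 ± 0.52, stands between LOC101899380 at 0.04 ± 0.39 and LOC101899552 at -0.06 ± 0.44.

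A newer RefSeq gene table for the species (assembly Musca_domestica.polishedcontigs.V.1.1), used here for gene order only, lists members from several of these scaffolds near each other in its order of entries. It holds 21 of the 23 members, LOC105262387 and LOC105262231 being the ones not found. A run allowed at most 6 entries between members and required increasing start positions, and neither contig nor distance was compared. The longest run has 15 members within 24 consecutive entries and draws its members from 8 scaffolds of the deposited table. This order departs in part from the deposited one: LOC101889113 and LOC101889292, neighbours on NW_004764608.1, stand at places 3 and 16, and LOC101889113 stands between LOC101897867 and LOC101897422. LOC101894951, from NW_004770069.1, stands between LOC101899552 and LOC101899380 of NW_004766817.1. The run also holds LOC105262435 and LOC131804080, entries with no row in the deposited table. Its first 14 entries hold 12 members, from LOC101898033 to LOC101894839, with LOC101899086, LOC101895631 and LOC101897422 among them. After LOC101889292 the run is broken by 6 genes of other kinds, such as those for the chromatin factor Spt16 and the actin-related protein Arp3, before LOC105262380 and LOC105262457. The 4 most abundant members all lie in this run, and the members outside it include Mth-like 1, Mth-like 5, Mth-like 14 and the Mth2 gene LOC101892089.

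The study compared dsMdCht9 with dsGFP larvae, and the contrast addresses which genes differ after the injected RNA against the chitinase. At an adjusted p under 0.05 in edgeR's quasi-likelihood test with Benjamini-Hochberg adjustment over all genes, 0 of 10644 genes tested were called (0.00%), and the smallest adjusted p was 0.675. At an unadjusted p under 0.05 the same test called 381 genes (3.58%), and 2 members, LOC105262387 and LOC105262457, were among them. Both lay on the side with higher values in dsMdCht9 larvae, where 1.97% of genes tested were called, and 0 members were called on the lower side, where 1.61% were. DESeq2 called 14 genes (0.132%) at the adjusted threshold, and 88 (0.827%) with the replicate number as a block, with LOC105262387 as the one member in each. The groups did not overlap in CPM for 874 genes tested (8.21%), and for 2 members, LOC101897422 and LOC105262387, both higher in dsMdCht9 larvae, as were 4.83% of genes tested. The family was proposed from this contrast, so nothing is read from these counts.

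Most members differed little between the treatments. The log2 fold change was above 0 in 17 members and below 0 in 6, the median over the 23 members was 0.11, and 15 members were within 0.3 of 0. Over all tested genes 5268 were above 0 and 5376 below, with a median of -0.0033. With library size alone as the scaling these medians were 0.23 for the family and 0.12 for all tested genes, a shift of all genes together. Family reads made up 0.0905%, 0.0578% and 0.0924% of all reads in dsMdCht9 larvae, against 0.0498%, 0.0708% and 0.0881% in dsGFP larvae. The 2 lowest of these shares were dsGFP replicate 1 and dsMdCht9 replicate 2, 1 from each group. The means of 0.0802% ± 0.0194 in dsMdCht9 larvae and 0.0696% ± 0.0192 in dsGFP larvae differed by less than their SDs. Without dsGFP replicate 1 the difference of 0.0107 percentage points was 0.00078.

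LOC105262387, a Mth-like gene annotated as partial, stood furthest from 0. It had 87, 31 and 82 reads in dsMdCht9 larvae, against 11, 6 and 12 reads in dsGFP larvae, which is 5.45, 2.42 and 6.05 CPM against 0.793, 0.409 and 0.759 CPM. Every dsMdCht9 library was above every dsGFP library, and the lowest dsMdCht9 library, replicate 2, held 31 reads, against 29 in the 3 dsGFP libraries together. The exact Poisson 95% interval, which covers counting error only, was 21.1 to 44.0 reads for that library and 6.20 to 21.0 reads for the highest dsGFP library. Over the group, 200 reads (173.2 to 229.7) in dsMdCht9 larvae stood beside 29 reads (19.4 to 41.6) in dsGFP larvae. The log2 fold change was 2.81 ± 0.46, and the authors' deposited table gives 2.82 with an adjusted p of 0.000512.

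The model of LOC105262387 is short, and no other member lies on its scaffold. It covers 872 bases, from 1885 to 2756 on the plus strand of NW_004769740.1, introns included. The gene after it, 779 bases away, is LOC105262389, an uncharacterized partial protein, with 4.29 ± 1.03 CPM in dsMdCht9 larvae and 3.70 ± 1.44 CPM in dsGFP larvae. The log2 fold change of that neighbour was 0.22 ± 0.35. LOC105262387 has no UniProt match in the authors' table and was not found in the newer RefSeq table.

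**Figure D3:**
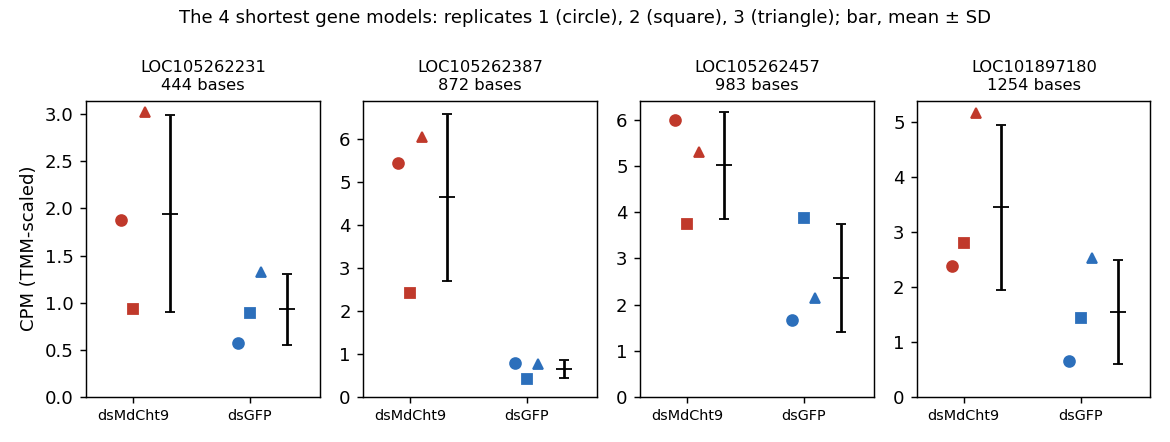
CPM of the 4 shortest gene models in each library (dsMdCht9 left, dsGFP right in each panel; y axes start at 0 and differ between panels), with the group mean ± SD as a bar. The groups do not overlap for LOC105262387, and overlap for LOC105262231, LOC105262457 and LOC101897180, whose dsMdCht9 means are the higher ones.

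The other 3 members with a log2 fold change above 0.9 were LOC101897180, LOC105262231 and LOC105262457, all described as Mth2-like. LOC105262457 had 96, 48 and 72 reads in dsMdCht9 larvae, against 23, 57 and 34 reads in dsGFP larvae. In CPM only dsGFP replicate 2 reached the dsMdCht9 range, and the log2 fold change was 0.97 ± 0.37. LOC101897180 had 38, 36 and 70 reads in dsMdCht9 larvae, against 9, 21 and 40 reads in dsGFP larvae. Its dsGFP replicate 3 lay inside the dsMdCht9 range, and the log2 fold change was 1.15 ± 0.53. The gene that follows LOC101897180 on its scaffold, which encodes the nucleoporin Ndc1, averaged 18.1 ± 2.36 CPM in dsMdCht9 larvae and 15.1 ± 2.56 CPM in dsGFP larvae. LOC105262231 had 30, 12 and 41 reads in dsMdCht9 larvae, against 8, 13 and 21 reads in dsGFP larvae, and the log2 fold change was 1.05 ± 0.52. Without dsMdCht9 replicate 3 the log2 fold changes of LOC105262231 and LOC101897180 were 0.60 and 0.74. In the plot of the 4 genes by library, the overlap of LOC105262231 is that of dsMdCht9 replicate 2, at 0.935 CPM, with dsGFP replicate 3, at 1.33 CPM.

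These 4 genes were also the 4 shortest gene models of the family, at 444 bases for LOC105262231, 872 for LOC105262387, 983 for LOC105262457 and 1254 for LOC101897180. The next model, LOC105262380, spans 3371 bases. The median log2 fold change was 1.10 over the 4 short models and 0.06 over the other 19 members, which ran from -0.71 to 0.50. A log2 fold change above 0.9 occurred in 4 of 23 members (17.4%), in 47 of 1858 tested protein-coding genes no longer than 1254 bases (2.53%) and in 155 of 10644 tested genes (1.46%). The median over those 1858 short genes was -0.093. The limit of 1254 bases is the length of the longest of these 4 models, and 0.9 lies just under their lowest log2 fold change, 0.97. The share among members follows from this choice of limits, so nothing is read from its difference from the other shares. The grouping by length was noticed after the values were seen and is given without a test.

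**Figure D4:**
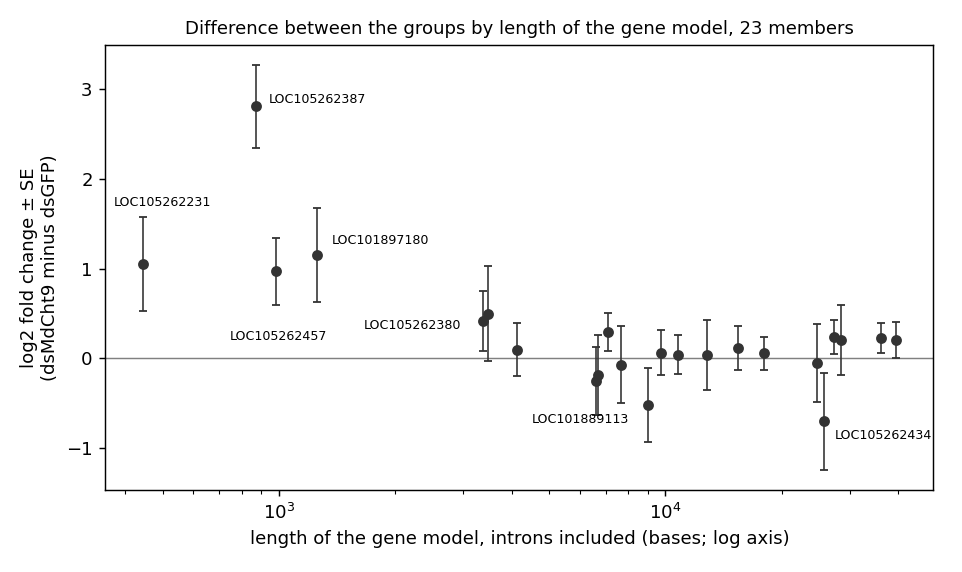
Log2 fold change (dsMdCht9 over dsGFP, ± SE) of each member against the length of its gene model with introns (log axis). The 4 models up to 1254 bases lie between 0.97 and 2.81, and the other 19 lie between -0.71 and 0.50.

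Other entries of the deposited table describe these models further. Alignment scores to the best-matching database protein, as the authors' deposited table gives them, were 475 for LOC105262231, 653 for LOC105262387, 902 for LOC105262457 and 1222 for LOC101897180. LOC105262380 scored 1053, and all remaining members scored 1649 to 3779. The description of each short model names a predicted housefly protein, so a score may follow the length of the model itself. These scores are thus not separate evidence on whether a model is complete. LOC101897180, LOC105262380, LOC105262387 and LOC105262457 are the 4 members with no UniProt match. The domain named was DUF4271 for LOC105262387 and LOC101897180, and Choline_transpo for LOC105262231. The place of LOC105262387 and LOC101897180 in the family thus rests on the description, while LOC105262231 also has a UniProt match to Mth2. LOC105262457 has the 7tm_2 domain name. The other members without a Methuselah_N or 7tm_2 name are LOC105262380 (DNA_PPF) and LOC101893894 (DUF4401). How reads that map to several copies were treated is not given in the sources used here, so the reads of a short copy may include reads of a close relative, and the values are uncertain gene by gene.

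Libraries differed along a pattern that crossed the treatments. In 7 members, LOC101899086, LOC101895631, LOC101894839, LOC105262380, LOC101899552, LOC101894951 and LOC105262434, the 2 lowest libraries were dsMdCht9 replicate 2 and dsGFP replicate 1. LOC101899380 had those same libraries as its 2 highest, with 15.5 CPM in dsMdCht9 replicate 2 and 12.0 CPM in dsGFP replicate 1. In 6 members, among them LOC101899086, LOC101894839 and LOC105261538, the 2 highest were the replicate 3 libraries of both groups. Those libraries were also highest for the summed other G protein-coupled receptors, at 600 CPM (dsMdCht9) and 726 CPM (dsGFP), against 303 to 400 CPM elsewhere. The same held for the summed other secretin and adhesion receptors, at 258 and 297 CPM, but not for summed G protein subunits. High values in the replicate 3 libraries were thus not particular to the family. Single libraries stood out as well: dsMdCht9 replicate 3 was highest in 9 members and dsGFP replicate 1 was lowest in 10.

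**Figure D5:**
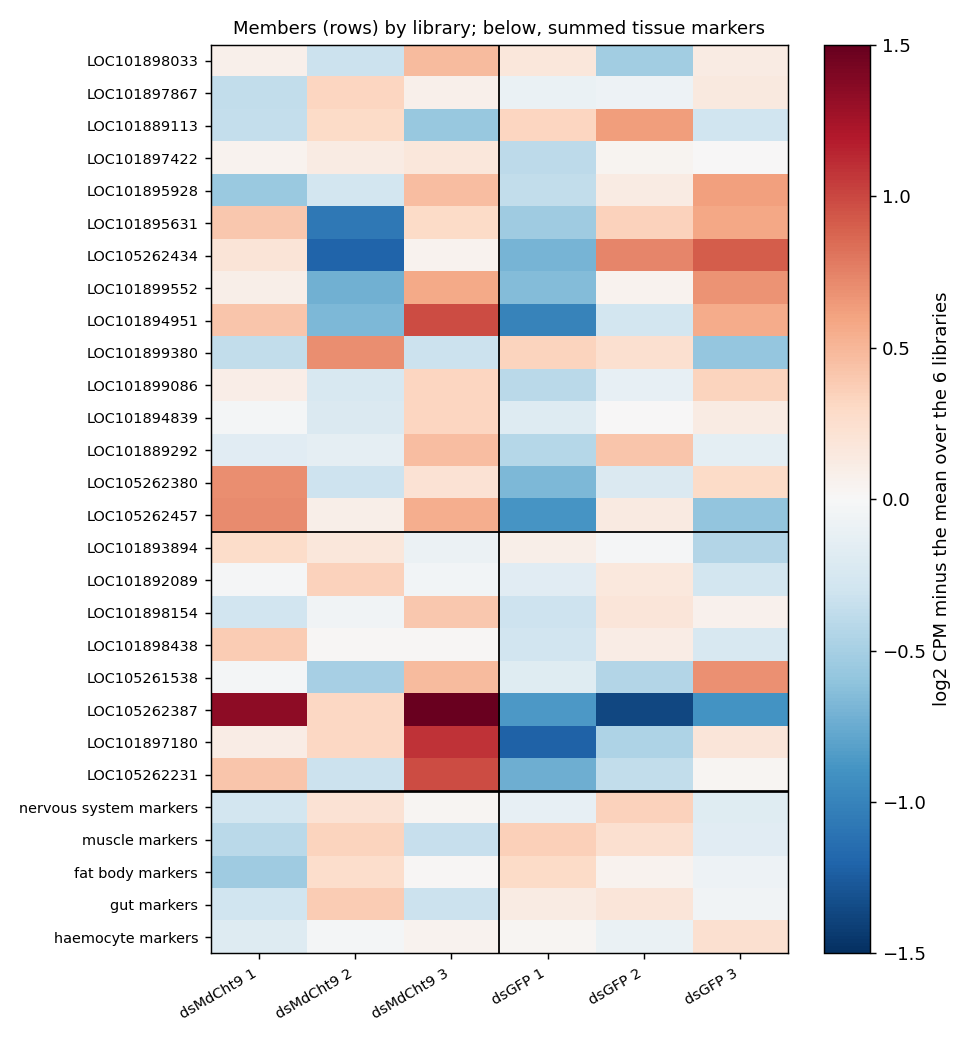
Log2 CPM of each member minus its mean over the 6 libraries (colour, red higher and blue lower), with dsMdCht9 libraries left and dsGFP libraries right; the upper 15 rows follow the order of the run in the newer gene table, the next 8 are the remaining members, and the lowest 5 are summed tissue markers. Members such as LOC101895631 and LOC105262434 are blue in dsMdCht9 2 and dsGFP 1, while the muscle and fat body rows are red there.

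Tissue markers varied over the same libraries. Muscle markers, 24 of 28 listed genes tested and 3 with a log2 fold change above 0, summed to 22490, 37288 and 23283 CPM in dsMdCht9 larvae, against 38169, 34949 and 26312 CPM in dsGFP larvae. Their 2 highest libraries were dsGFP replicate 1 and dsMdCht9 replicate 2, the libraries lowest for the 7 members named above. Fat body markers, 12 of 13 tested and 1 above 0, summed to 87050, 151029 and 127332 CPM in dsMdCht9 larvae, against 154414, 131342 and 119511 CPM in dsGFP larvae. Their 2 highest libraries were the same. Gut markers, 106 of 132 tested and 31 above 0, summed to 14044, 22501 and 13767 CPM in dsMdCht9 larvae, against 18759, 19524 and 16571 CPM in dsGFP larvae. Nervous system markers summed to 140, 197 and 173 CPM in dsMdCht9 larvae and 156, 215 and 150 CPM in dsGFP larvae, and haemocyte markers to 492, 554 and 583 CPM in dsMdCht9 larvae and 577, 525 and 665 CPM in dsGFP larvae. The median log2 fold change was -0.23 for muscle, -0.32 for fat body, -0.21 for gut, 0.07 for 11 tested nervous system and -0.05 for 9 tested haemocyte markers. In edgeR 0 markers passed the adjusted threshold, and 11 gut markers had an unadjusted p under 0.05, all lower in dsMdCht9 larvae, as were 1.61% of all genes tested. DESeq2 called 2 gut markers, and with the replicate block 5 gut markers and 1 fat body marker. The gut list was matched on description terms such as trypsin, so it is not limited to digestive enzymes. It took in LOC101896547, described as a pancreatic secretory trypsin inhibitor, which DESeq2 called with and without the block. The part of tissue makeup in the values of the receptors was not tested.

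The genes around the receptors in the pathway were read from lists of description terms, and neither edgeR, limma-voom nor DESeq2, with or without the block, called any of them at the adjusted threshold. Of 9 genes for receptor ligands and downstream hormones, 3 were tested and 0 passed the adjusted threshold or the unadjusted p under 0.05. LOC101889257, the ATP synthase epsilon subunit whose Drosophila counterpart is Stunted, had 154, 153 and 104 CPM in dsMdCht9 larvae, against 200, 176 and 116 CPM in dsGFP larvae. The groups overlapped, with a log2 fold change of -0.26 ± 0.26. LOC101891688, described as folded gastrulation, the Mth-like 1 ligand in Drosophila, had 1.44, 1.95 and 2.43 CPM in dsMdCht9 larvae and 1.23, 2.73 and 2.28 CPM in dsGFP larvae.

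Of 16 genes for subunits of heterotrimeric G proteins, which pass the signal on inside the cell, 15 were tested, 11 had a log2 fold change above 0 and 0 passed the adjusted threshold. The 3 with an unadjusted p under 0.05 were all alpha subunits with higher means in dsMdCht9 larvae, a side on which 1.97% of all genes tested were called. LOC105262176 (G alpha i) averaged 14.4 ± 3.57 CPM in dsMdCht9 larvae and 8.10 ± 0.619 CPM in dsGFP larvae, with a log2 fold change of 0.83 ± 0.22. LOC101894482 (G alpha q) had 0.54 ± 0.18 and LOC101898700 (G alpha i) 0.46 ± 0.18 on the same log2 fold change scale. The median over the 15 genes was 0.08.

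Of 27 genes for second messenger enzymes and for receptor desensitisation, 21 were tested, 0 passed the adjusted threshold and 1 had an unadjusted p under 0.05. That gene, LOC101897991, is described as a beta-arrestin, a protein that uncouples active receptors from G proteins, and averaged 1.06 ± 0.315 CPM in dsMdCht9 larvae and 0.469 ± 0.149 CPM in dsGFP larvae. The receptor kinases LOC101896222 and LOC101901760 had log2 fold changes of 0.19 ± 0.13 and 0.27 ± 0.23. Among the 7 tested secretin and adhesion receptors outside the family the median log2 fold change was 0.01, and among the 24 tested receptors of other classes it was -0.03, with 0 genes of either list at an unadjusted p under 0.05. The diuretic hormone receptor LOC101897005 had -0.36 ± 0.33, and the opsin LOC101900041 had -0.49 ± 0.23.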

How the data were processed

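The authors deposited 1 table that holds raw read counts (whole numbers) in 6 library columns, an annotation and their own comparison. Per the file headers, that comparison has a signal column of normalized means, a fold (ratio), its log2 and p-values. Per the submitters' processing notes the tools were HISAT2 2.1.0, StringTie 1.3.2d and HTSeq 0.6.0. Of the build name, strand use and handling of multi-mapped reads, each was not given in the sources used here. No sample column was left unused (0), and 0 rows named no gene.

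Counts were analysed in R 4.3.3 with edgeR 4.0.16: filterByExpr kept 10644 genes, libraries were scaled by TMM, and a robust two-sided quasi-likelihood F-test compared dsMdCht9 with dsGFP, with Benjamini-Hochberg adjustment over all tested genes. CPM values use the TMM-scaled library sizes. Library totals of 12876941 to 15439421 reads, taken without TMM scaling, put a floor of 3 reads at 0.194 CPM in the deepest library. That floor is thus only approximate on the scale of the CPM values given here. DESeq2 1.42.0, limma-voom (limma 3.58.1), other filters and scalings, leaving out libraries and a replicate block were alternatives. On simulated counts of 10505 genes with the comparison's own means and spread, edgeR called 76 of 100 genes changed 4-fold and 15 of 99 changed 2-fold, with 8 unchanged genes called. DESeq2 called 85, 33 and 40 of these kinds. The simulated libraries were drawn independently and lack the deviations that the real libraries shared across genes. These rates therefore need not hold for the real comparison.

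Same-numbered samples deviated together from their group means, with correlations across genes of 0.240, 0.395 and 0.652 for numbers 1, 2 and 3. All were over 0.1, so the replicate number was used as a block in alternative fits. The main edgeR fit, which gave the p-values and standard errors of members, used no pairing. dsMdCht9 replicate 2 also deviated together with dsGFP replicate 1, with a correlation of 0.319. The labels do not state a pairing.

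Members and lists were chosen with earlier results of these data known, and fold changes of members are therefore descriptions. Named with values per library were the 10 members with the most CPM, members whose groups did not overlap, members at an unadjusted p under 0.05, members with 20% or more of the family's reads, and the members of the largest scaffold group; other lists gave up to 3 genes with the smallest p. Genes named beyond these, such as the remaining short models and their neighbours, were chosen after their values were seen. Coordinates are those of the deposited table, counted as it gives them.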

Additional observations from a re-analysis of the deposited data

How the results depend on the processing

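No member changed its call in edgeR under any alternative filter, scaling, left-out library or block, with 0 genes called throughout, and limma-voom called 0 as well. DESeq2 called 14 genes and 1 member, and DESeq2 with the replicate block called 88 genes and 1 member, LOC105262387 in both; the cause was not tested. In edgeR the replicate block changed no other call and gave log2 fold changes of 2.79 for LOC105262387 and 0.12 for the family median. Leaving out 1 library at a time gave 2.57 to 3.12 for LOC105262387 and 0.025 to 0.24 for the family median. The difference in family share, 0.0107 percentage points with all libraries, then ran from 0.00078 to 0.0219. The median of the 4 shortest models ran from 0.80 without dsGFP replicate 1 to 1.56 without dsGFP replicate 3. All alternatives for that median were chosen after seeing the data. Leaving out 1 library gave 0 calls in the family and over all genes. Library size alone as the scaling moved the median of all genes to 0.12, the family median to 0.23 and LOC105262387 to 2.96. A filter of 5 CPM left out LOC105262387 and the other short models. The sign of the fold change held in every alternative run for 12 members, among them the 4 short models, LOC101897422, LOC105262434 and LOC101889113, and changed in at least 1 for the other 11, all within 0.3 of 0. Depth limits the lowest copies most: LOC105262387 rests on 6 to 12 reads in each dsGFP library.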

Other observations

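Entries just outside the selection share a description or a domain name with the family or lie beside a member. LOC109614173, a non-coding RNA gene described as Mth2-like, had 17, 10 and 18 reads in dsMdCht9 larvae, against 3, 18 and 8 reads in dsGFP larvae. LOC109614174, a non-coding gene with no description that follows LOC101895928 on its scaffold, had 8, 8 and 9 reads in dsMdCht9 larvae, against 6, 3 and 16 reads in dsGFP larvae. LOC105261582, non-coding with a Methuselah_N domain name, had 6, 5 and 5 reads in dsMdCht9 larvae, against 0, 3 and 3 reads in dsGFP larvae. LOC105261838, an uncharacterized partial protein of 566 bases with the same domain name, had 14, 10 and 17 reads in dsMdCht9 larvae, against 5, 6 and 17 reads in dsGFP larvae, with a log2 fold change of 0.63 ± 0.53. All 4 are near the level at which counting error alone is wide, and none is counted in the family.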
